A study of Mus musculus with 4 samples.

Results

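The annexins Anxa1, Anxa2, Anxa3, Anxa4, Anxa5, Anxa6, Anxa7 and Anxa11 and the S100 genes S100a10 and S100a4 were compared between macrophages grown in GM-CSF and macrophages grown in M-CSF. They were found by gene symbol, as probe sets annotated with exactly 1 of these 10 names. All 10 were present among the 19938 genes that had such a probe set, and all 10 passed the filter on dim genes, which left 14995 genes for testing. Where a gene had more than 1 probe set, the one used was chosen by its mean level over the 4 arrays, which concerned Anxa6 alone. The names were assembled with earlier results of these data known, so the number of them that differed is a description of these genes and not independent evidence about the family.

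Annexins are proteins that bind negatively charged phospholipids when calcium rises, through a conserved core of repeated domains, and that differ in their N-terminal tails. In macrophages they are known for roles in membrane repair, endocytosis, uptake of dying cells and the resolution of inflammation. S100 proteins are small calcium-binding proteins with EF-hand folds, and several of them dock onto annexin tails. S100a10 differs in that it needs no calcium: it holds Anxa2 in a stable complex at the plasma membrane, where that complex is known to bind plasminogen.

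The cells were mouse C57BL/6J bone marrow cells cultured for 7 days in medium with 10% serum. The first group, named M1 by the submitters, was grown with GM-CSF and sorted as CD45+, MHC class II+, CD8a- and positive for the Adgre1 protein. The second, named M2, was grown with M-CSF, supplied as 20% supernatant of L929 cells (a mouse fibroblast line), and sorted as CD45+, CD11b+ and positive for the Adgre1 protein. Each group had 2 arrays, on which total RNA was measured. Growth factor, supernatant and sort gate differed together, so their parts cannot be told apart, and fewer cells of a type cannot be told apart from less RNA per cell. The labels do not state whether replicates came from separate cultures or mice, and the p-values then reflect only how far these samples spread, which for the M-CSF pair may be technical.

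The GM-CSF arrays lay further apart than the M-CSF arrays. The difference between the 2 arrays of a group had an SD over genes of 0.33 (log2) for GM-CSF and 0.18 for M-CSF, and 226 and 7 genes lay at least 2-fold apart within the pair. GM-CSF replicate 1 also stood apart in Xist, the transcript that silences an X chromosome, at 11.58 against 4.53 to 4.93 on the other arrays, and in the Y-linked gene Eif2s3y, at 3.66 against 9.10 to 9.32. The GM-CSF arrays were thus opposite in these sex-linked transcripts, as RNA of mice of different sex would be, while both M-CSF arrays read like GM-CSF replicate 2. The part of this difference in the results was not tested, and each fit without GM-CSF replicate 1 compares arrays that are alike in both transcripts. Macrophage markers were bright in both groups, with a mean over the 8 marker genes of 11.84 to 11.96 in GM-CSF and 11.54 to 11.61 in M-CSF arrays. The list includes Adgre1, on whose protein both groups were sorted, and Itgam, the gene of CD11b, on which the M-CSF group was sorted. For each of the 10 genes, a call that ended or began when 1 array was dropped is therefore given below with the difference left.

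S100a4, S100a10, Anxa1, Anxa4 and Anxa3 were higher in GM-CSF cells and Anxa6 was lower, and Anxa2, Anxa5, Anxa7 and Anxa11 did not pass the test. A gene passed at a Benjamini-Hochberg adjusted p under 0.05 over all 14995 genes (limma, 2 arrays per group), a rule that 10.7% of all genes met, 6.18% as higher and 4.53% as lower in GM-CSF cells. Of the 10 genes, 5 were higher and 1 was lower. For all 10 the arrays of the groups did not overlap, which held for 55.4% of all genes. The median difference was 0.62 (log2, GM-CSF minus M-CSF) over the 10 genes and -0.01 over all genes tested. Without M-CSF replicate 1 the higher genes numbered 3 (S100a4, Anxa1 and Anxa4), and without M-CSF replicate 2 only S100a4 passed, while 1.31% and 1.12% of all genes were higher in those fits. Dropping a GM-CSF array, which leaves the spread to the closer M-CSF pair, gave 6 higher genes without replicate 1 and 7 without replicate 2, beside 9.79% and 11.2% of all genes.

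**Figure D1:**
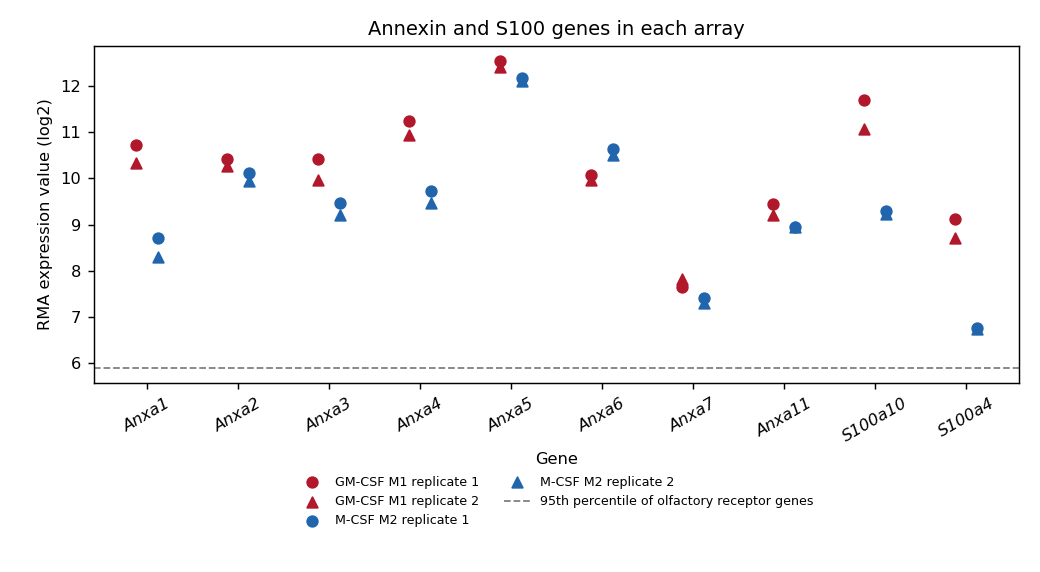
Each point is the deposited RMA value (log2, vertical axis) of a gene (horizontal axis) on 1 array, red for GM-CSF M1 and blue for M-CSF M2, circles for replicate 1 and triangles for replicate 2. The dashed line at 5.90 is the 95th percentile of olfactory receptor genes, averaged over the arrays. Red and blue points do not overlap for any of the 10 genes, and Anxa6 is the one with blue above red. Heights of different genes are not comparable, because each is read by its own probes.

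S100a4 had the largest difference of the 10 genes. It encodes a small protein that binds non-muscle myosin and is known in motile cells, fibroblasts and macrophages. It read 9.13 and 8.72 in GM-CSF replicates 1 and 2 and 6.75 and 6.73 in M-CSF replicates 1 and 2. The GM-CSF arrays were both far above the M-CSF arrays, which were nearly alike. The difference was 2.18 ± 0.16 (log2, SE, n = 2 per group), or 4.54-fold, with a 95% interval of 1.80 to 2.56 (limma, adjusted p = 0.00075). It was the only one of the 10 genes that passed in each of the 4 fits with an array left out, at 1.98 to 2.39. Its M-CSF values lay above the olfactory receptor background of 5.90 by less than 1 (log2), and RMA compresses differences of dim genes.

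S100a10, the partner of Anxa2, was higher by a similar amount. It read 11.71 and 11.06 in the GM-CSF arrays and 9.30 and 9.22 in the M-CSF arrays. The groups did not overlap, but the GM-CSF arrays were 0.64 apart, the widest gap within a pair among the 10 genes. The difference was 2.12 ± 0.21 (4.35-fold, 95% interval 1.61 to 2.63, limma adjusted p = 0.0026). Leaving out GM-CSF replicate 1 gave 1.80 and leaving out its replicate 2 gave 2.44. Without M-CSF replicates 1 and 2 its adjusted p was 0.068 and 0.077 (limma), so the call ended there, with the difference still at 2.16 and 2.09.

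Anxa2, to whose tail S100a10 binds, differed far less. Its values were 10.43 and 10.27 in GM-CSF and 10.12 and 9.94 in M-CSF cells. The groups stood apart by 0.15 between their nearest arrays, about the distance within a pair. The difference of 0.32 ± 0.12 had a 95% interval of 0.02 to 0.61 and did not pass (limma, adjusted p = 0.17), and with an array left out it ran from 0.23 to 0.41. Within each array, S100a10 minus Anxa2 was 1.28 and 0.79 in GM-CSF cells against -0.82 and -0.72 in M-CSF cells. This within-array difference thus moved by 1.80 between the groups, with no overlap of arrays. An exact permutation test of 2 against 2 arrays (two-sided) gave p = 0.33, the smallest it can give.

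Anxa1 was the annexin with the largest difference. It encodes a glucocorticoid-induced protein that acts through formyl peptide receptors and is known to limit neutrophil recruitment. Its values were 10.73 and 10.34 in GM-CSF and 8.70 and 8.29 in M-CSF cells, with pairs 0.39 and 0.41 apart. The gap between the nearest arrays of the groups was 1.64, wider than either. The difference was 2.04 ± 0.19 (4.10-fold, 95% interval 1.57 to 2.50, limma adjusted p = 0.0020). With an array left out it ran from 1.83 to 2.24, and without M-CSF replicate 2 its adjusted p was 0.0501 (limma), just outside the threshold.

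Anxa4, an annexin of epithelial and secretory membranes that is also present in leukocytes, was the next in size. It read 11.25 and 10.95 in GM-CSF and 9.73 and 9.48 in M-CSF cells, and the groups stood 1.21 apart. The difference was 1.49 ± 0.15 (2.81-fold, 95% interval 1.12 to 1.86, limma adjusted p = 0.0027). With an array left out it ran from 1.34 to 1.64, and without M-CSF replicate 2, at 1.36, the call ended (limma, adjusted p = 0.069).

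Anxa3, known from neutrophil granules and phagocytes, was higher by less. Its values were 10.41 and 9.97 in GM-CSF and 9.46 and 9.20 in M-CSF cells. The groups did not overlap, with 0.51 between their nearest arrays and 0.44 within the GM-CSF pair. The difference was 0.86 ± 0.18 (1.81-fold, 95% interval 0.43 to 1.29, limma adjusted p = 0.033). The value was 0.64 when GM-CSF replicate 1 was left out and 1.08 when replicate 2 was. The call ended when M-CSF replicate 1 (0.99, limma adjusted p = 0.18) or 2 (0.73, adjusted p = 0.27) was left out.

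The differences of S100a4, S100a10 and Anxa1 had intervals that overlapped each other widely, so those intervals do not resolve their order. The same held between Anxa4 and Anxa1, whose intervals shared the range from 1.57 to 1.86. Anxa3 and Anxa4 shared only 1.12 to 1.29. By absolute difference S100a4, S100a10 and Anxa1 lay at the 98.8th, 98.7th and 98.6th percentiles of all genes tested, Anxa4 at the 97.6th and Anxa3 at the 93.8th.

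**Figure D2:**
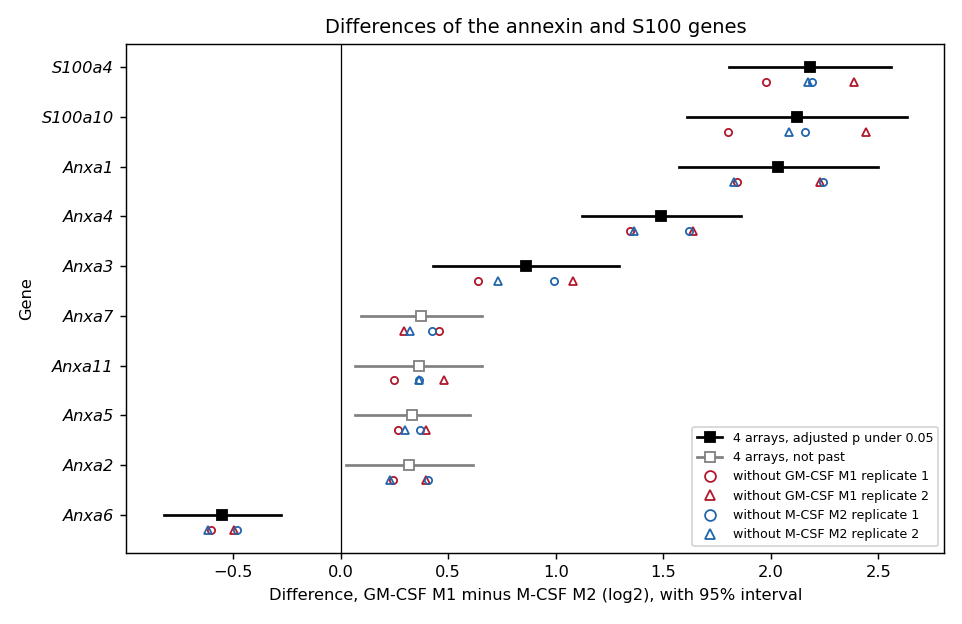
Squares are differences in GM-CSF M1 minus M-CSF M2 (log2, horizontal axis) with 95% limma intervals over the 4 arrays, black and filled where the adjusted p was under 0.05 and open grey where it was not. The small open symbols under each square are the differences with 1 array left out. The order runs from S100a4 at 2.18 to Anxa6 at -0.55, and no difference changed sign when an array was left out.

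Anxa6, the largest annexin, with a longer core than the others and a known place on endosomes and the plasma membrane, was the only one of the 10 genes that was lower in GM-CSF cells. It read 10.07 and 9.96 in GM-CSF and 10.63 and 10.50 in M-CSF cells. The groups were 0.43 apart at their nearest, against 0.11 and 0.13 within the pairs. The difference was -0.55 ± 0.11 (1.46-fold lower, 95% interval -0.82 to -0.28, limma adjusted p = 0.031). A second and much dimmer probe set of Anxa6, not used above, read 6.41 and 6.46 in GM-CSF against 6.62 and 6.25 in M-CSF cells, overlapping, with a difference of 0.0028. With the probe sets averaged the difference was -0.27 and did not pass (limma, adjusted p = 0.24). The call also ended when M-CSF replicate 1 (-0.48, limma adjusted p = 0.27) or 2 (-0.62, 0.18) was left out.

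Anxa5, Anxa7 and Anxa11 differed by amounts near that of Anxa2 and did not pass. Anxa5, the protein whose binding to exposed phosphatidylserine is used to stain dying cells, read 12.54 and 12.41 in GM-CSF and 12.18 and 12.11 in M-CSF cells. The difference was 0.33 ± 0.11 (95% interval 0.06 to 0.60, limma adjusted p = 0.12). The GM-CSF arrays were again both the higher ones, by a margin of 0.23.

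Anxa7, also called synexin and known for membrane fusion, read 7.65 and 7.82 in GM-CSF and 7.41 and 7.31 in M-CSF cells. It was the only one of the 10 genes with GM-CSF replicate 2 above replicate 1. The difference was 0.38 ± 0.12 (95% interval 0.09 to 0.66, limma adjusted p = 0.10).

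Anxa11, a binding partner of S100a6 and of the calcium sensor Pdcd6, read 9.43 and 9.20 in GM-CSF and 8.95 and 8.96 in M-CSF cells. The difference was 0.36 ± 0.12 (95% interval 0.07 to 0.66, limma adjusted p = 0.12). These intervals leave room for changes of up to 0.66 on the log2 scale, so the genes that missed the threshold are not shown to be equal between the groups. Each of these 3 genes passed when 1 GM-CSF array was left out: Anxa5 and Anxa11 without replicate 2, with differences of 0.40 and 0.48 (limma, adjusted p = 0.048 and 0.018), and Anxa7 without replicate 1, with a difference of 0.46 (limma, adjusted p = 0.029).

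**Figure D3:**
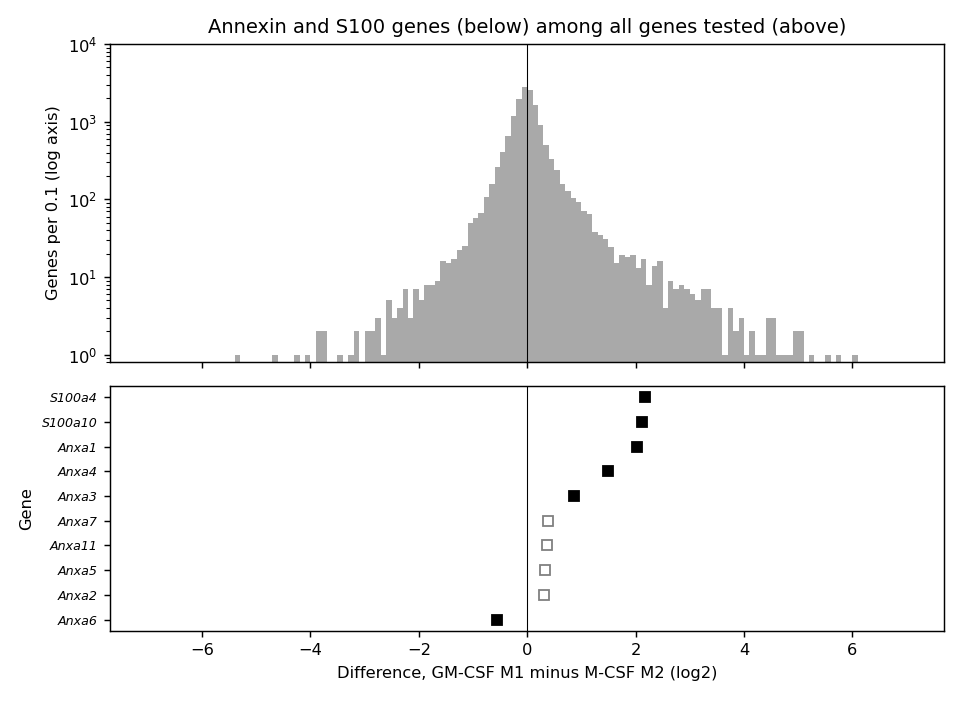
The upper panel counts genes (log axis) by their difference in GM-CSF M1 minus M-CSF M2 (log2, horizontal axis, bins of 0.1) for all 14995 genes tested. The lower panel places the 10 annexin and S100 genes on the same axis, filled where the adjusted p was under 0.05. S100a4, S100a10 and Anxa1 lie together between 2.04 and 2.18, and Anxa2, Anxa5, Anxa7 and Anxa11 lie together between 0.32 and 0.38.

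Replicate 1 was the higher array of its pair for most of these genes in both groups. GM-CSF replicate 1 was above replicate 2 for 9 of the 10 genes, and M-CSF replicate 1 above replicate 2 for 9 of the 10, against 44.0% and 57.6% of all genes tested. The median gap was 0.27 in the GM-CSF pair and 0.12 in the M-CSF pair, both smaller than the difference between groups for each of the 6 genes that passed.

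The promoter sequences show how the start regions of these genes differ. RefSeq (GRCm38.p6) promoter entries were held for 7 of the 10 genes, leaving Anxa3, Anxa6 and S100a10 without one here. The 200 bases before the start are printed 5′ to 3′ for S100a4, Anxa1 and Anxa4, which were higher in GM-CSF cells, and for Anxa2 and Anxa11, which did not pass. They lie at chr3:90603570-90603769 on the plus strand (S100a4), chr19:20390672-20390871 on the minus strand (Anxa1), chr6:86793585-86793784 on the minus strand (Anxa4, the first of 2 entries), chr9:69453483-69453682 on the plus strand (Anxa2) and chr14:25841955-25842154 on the plus strand (Anxa11). Capitals mark matches, on either strand, to the letters TATAAA of a TATA box, GGGCGG of a GC box, CCAAT of a CCAAT box, TGANTCA (AP-1), TTCNNNGAA (STAT) and GAGGAAGT (PU.1).
S100a4: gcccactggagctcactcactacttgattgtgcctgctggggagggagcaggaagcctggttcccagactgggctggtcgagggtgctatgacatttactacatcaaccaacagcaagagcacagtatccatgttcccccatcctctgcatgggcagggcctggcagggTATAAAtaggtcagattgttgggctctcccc
Anxa1: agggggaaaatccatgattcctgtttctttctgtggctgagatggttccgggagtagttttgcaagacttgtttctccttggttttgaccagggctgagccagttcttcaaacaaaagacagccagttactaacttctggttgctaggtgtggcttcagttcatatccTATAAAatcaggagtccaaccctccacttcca
Anxa4: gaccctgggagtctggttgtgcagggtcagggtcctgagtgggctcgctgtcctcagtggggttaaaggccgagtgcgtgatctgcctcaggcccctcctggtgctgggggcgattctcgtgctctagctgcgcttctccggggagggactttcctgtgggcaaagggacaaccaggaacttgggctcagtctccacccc
Anxa2: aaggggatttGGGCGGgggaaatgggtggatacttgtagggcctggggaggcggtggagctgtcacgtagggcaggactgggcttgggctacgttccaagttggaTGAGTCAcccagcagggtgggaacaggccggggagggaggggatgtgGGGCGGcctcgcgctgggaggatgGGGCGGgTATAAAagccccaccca
Anxa11: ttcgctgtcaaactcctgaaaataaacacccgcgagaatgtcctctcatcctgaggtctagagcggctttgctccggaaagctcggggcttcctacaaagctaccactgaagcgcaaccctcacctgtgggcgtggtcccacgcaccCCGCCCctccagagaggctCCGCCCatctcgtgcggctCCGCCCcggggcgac
S100a4 and Anxa1 each held TATAAA, from base -31 and from base -32 (the base before the start being -1), as their only match. Anxa2 held TATAAA from base -17, the AP-1 letters TGAGTCA from base -95 and 3 copies of GGGCGG. Anxa11 held 3 copies of GGGCGG on the opposite strand, and Anxa4 held no match. None of these matches overlapped another. Over 32851 promoter entries, 9.96% held TATAAA in the same window, 31.0% GGGCGG, 29.3% CCAAT, 5.48% TGANTCA, 5.49% TTCNNNGAA and 2.06% GAGGAAGT. TATAAA was thus found both in genes that were higher and in Anxa2, which did not pass. GGGCGG and TGANTCA were not limited to genes that did not pass either. The window of S100a11, an S100 gene outside the 10 that was higher by 1.46, held 3 copies of GGGCGG. It also held TGAGTCA from bases -136 and -38. Among other windows not printed, those of Anxa5, which did not pass, and of S100a6, which was higher, held no match. Anxa7, which did not pass, held GGGCGG in each of its entries, and the second entry of Anxa4 held no match. The matches describe letters in these windows and say nothing of binding.

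The other S100 genes were read from a list of 14. Of 11 tested, 3 were higher in GM-CSF cells, 0 were lower (limma, also 0 at an unadjusted p under 0.05) and 8 did not pass. Of all genes tested, 6.18% were higher and 4.53% were lower. The median difference was 0.14 over the 11 genes and -0.01 over all genes tested. Of the 14 listed, 5 had both group means no brighter than the olfactory receptor background of 5.90. S100a6, or calcyclin, a binding partner of Anxa11, read 8.76 and 8.44 in GM-CSF and 6.58 and 6.78 in M-CSF cells. The difference was 1.92 ± 0.15 (3.78-fold, limma adjusted p = 0.00095), with M-CSF values near the background of 5.90, like those of S100a4. S100a11, which binds the tail of Anxa1, read 12.67 and 12.47 against 11.08 and 11.15, a difference of 1.46 ± 0.12 (2.74-fold, limma adjusted p = 0.0012). Both passed in each fit with an array left out.

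S100a1, best known from heart muscle, read 11.28 and 10.47 in GM-CSF and 9.82 and 9.70 in M-CSF cells. The difference of 1.12 ± 0.25 passed (limma, adjusted p = 0.043), at 0.71 without GM-CSF replicate 1 and 1.52 without replicate 2. The call ended without M-CSF replicates 1 and 2 (0.27 and 0.30), with no filter on dim genes (0.055), with arrays centred on their medians (0.052) and with trended and robust variances (0.099, all limma). With GM-CSF replicate 2 left out, 6 of these S100 genes were higher, as were 11.2% of all genes. With GM-CSF replicate 1 left out 1 was lower, as were 1178 of all 14995 genes. S100a8 and S100a9, the calprotectin subunits of neutrophils and monocytes, did not pass. S100a8 read 8.54 and 7.04 in GM-CSF and 6.96 and 6.84 in M-CSF cells, so that GM-CSF replicate 1 alone stood out. S100a9 read 6.93 and 6.06 against 6.52 and 6.45, and the groups overlapped.

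The pairs of an S100 gene with the annexin its protein binds shifted by unequal amounts on these arrays. S100a6 minus Anxa11 within an array was -0.68 and -0.76 in GM-CSF and -2.37 and -2.18 in M-CSF cells, a shift of 1.56. The M-CSF values of S100a6 in this pair were near background, where RMA compresses differences. S100a11 minus Anxa1 was 1.94 and 2.13 in GM-CSF and 2.38 and 2.86 in M-CSF cells, a shift of -0.58. On these arrays S100a6, like S100a10, thus shifted more than its annexin, and S100a11 less than Anxa1, with no overlap of the groups. With 2 arrays a group the exact permutation test gave p = 0.33 for each of the 3 pairs, the smallest possible. The pairs were chosen with the values known.

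On chromosome 3, S100a4, S100a5 and S100a6 follow one another among protein-coding genes, and S100a11 and S100a10 are next to each other (RefSeq gene order, GRCm38.p6). S100a5, between the other two, read 5.34 and 5.38 in GM-CSF and 5.30 and 5.32 in M-CSF cells. Those values are below the olfactory receptor background of 5.90, so neighbours on both sides were above background and higher in GM-CSF cells while S100a5 had no signal above background in either group.

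Of the 4 remaining annexins, Anxa9 alone was above background. Anxa8, Anxa10 and Anxa13 had group means no brighter than the background of 5.90 and did not pass the filter on dim genes. Anxa9, an annexin without the calcium-binding residues of the others, read 7.63 and 7.79 in GM-CSF and 8.04 and 7.81 in M-CSF cells, and its difference of -0.22 ± 0.13 did not pass (limma, adjusted p = 0.37).

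A list of 18 genes, called partners below, held receptors and binding partners of these proteins and genes of plasminogen activation. Of these, 15 had a probe set of their own and were tested. Of the 15, 4 were higher in GM-CSF cells, 0 were lower (limma, also 0 at an unadjusted p under 0.05) and 11 did not pass. Beside them, 6.18% of all genes tested were higher and 4.53% lower. The median difference of the 15 was 0.23, against -0.01 over all genes tested. Of the 15, 3 (Plat, Plg and Dysf) had both group means under the olfactory receptor background of 5.90, and the median was the value of Plat. The formyl peptide receptor genes Fpr1, Fpr2 and Fpr3, through which Anxa1 signals, were not analysed here.

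Plaur, the receptor for the plasminogen activator urokinase, read 10.88 and 9.26 in GM-CSF and 7.70 and 7.53 in M-CSF cells. The difference of 2.45 ± 0.48 (5.48-fold, limma adjusted p = 0.026) was 3.27 with GM-CSF replicate 2 left out and 1.64 with replicate 1 left out. The call ended with trended and robust variances (0.20) and without M-CSF replicates 1 and 2 (0.23 and 0.24, all limma). Plau, urokinase itself, read 8.66 and 7.39 against 7.11 and 6.92 and did not pass (1.01 ± 0.38, limma adjusted p = 0.16).

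Myof, the membrane-repair protein myoferlin, read 11.10 and 11.07 in GM-CSF and 9.81 and 9.61 in M-CSF cells, a difference of 1.38 ± 0.12 (2.60-fold, limma adjusted p = 0.0014). It was the only one of these 4 partners that passed in each fit with an array left out. Ahnak, a giant scaffold that binds the complex of S100a10 and Anxa2, was higher by 0.83 ± 0.13 (limma, adjusted p = 0.013). Sri, the calcium sensor sorcin that binds Anxa7, was higher by 0.60 ± 0.12 (limma, adjusted p = 0.026). Ahnak and Sri lost their calls without M-CSF replicate 1, with differences of 0.94 and 0.59. They also lost them without M-CSF replicate 2, with differences of 0.73 and 0.60. With GM-CSF replicate 2 left out 7 partners were higher, beside 11.2% of all genes, and with GM-CSF replicate 1 left out 1 partner was lower, beside 1178 of all 14995 genes. Myh9, the non-muscle myosin heavy chain that S100a4 binds, read 10.61 and 10.76 in GM-CSF and 10.69 and 10.62 in M-CSF cells, a difference of 0.03 ± 0.11 (95% interval -0.24 to 0.31).

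**Figure D4:**
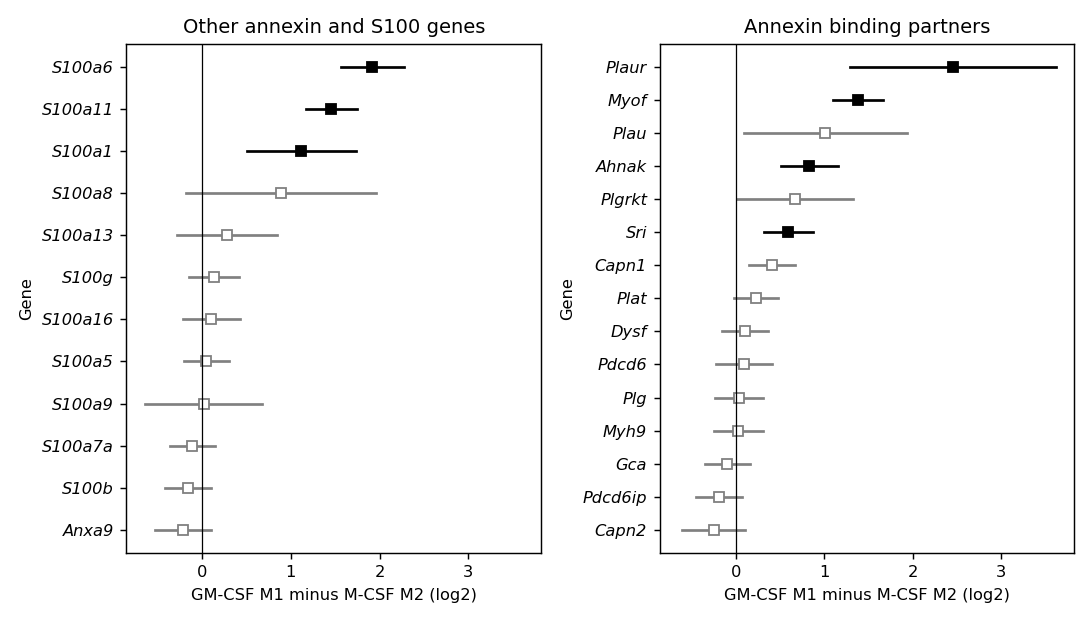
Squares are differences in GM-CSF M1 minus M-CSF M2 (log2, horizontal axis) with 95% limma intervals. The left panel holds tested S100 genes and Anxa9, and the right panel tested partner genes, those of plasminogen activation included. Squares are filled black where the adjusted p was under 0.05 and open grey where it was not. S100a6, S100a11 and S100a1 lead on the left at 1.92, 1.46 and 1.12, and Plaur, with the widest interval among the filled squares, leads on the right at 2.45.

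The genes with the pattern most like that of S100a4 were P2ry13, a purine receptor gene, Plp2, a membrane protein gene, and Acap1, a regulator of Arf proteins. Their root mean square distance from S100a4 over the 4 arrays, each gene centred on its own mean, was 0.06, 0.07 and 0.08 (log2). P2ry13 read 10.15 and 9.82 in GM-CSF and 7.94 and 7.84 in M-CSF cells. All 3 were thus near 2.1 higher in GM-CSF cells (2.09, 2.06 and 2.06), with the first GM-CSF array above the second, as for S100a4.

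Markers of other cells that express annexins and S100 genes were read beside these values. Of 9 dendritic cell markers tested, 3 were higher in GM-CSF cells and 6 did not pass. Their mean level ranged from 6.59 to 6.81 in GM-CSF arrays and from 5.77 to 5.80 in M-CSF arrays. Those that were higher were Itgax (4.53), Clec9a (2.44) and Ccr7 (1.16). The M-CSF means of Itgax (5.86) and Clec9a (4.96) were under the background of 5.90. Of the markers that did not pass, 4 had negative differences. Among these was Flt3 (-0.32), a defining receptor of dendritic cells, which was no brighter than background in either group. Of 9 neutrophil markers tested, Lcn2 was higher (1.23) and Mpo lower (-0.64). Ly6g, the defining surface marker, had both group means under the background level, with a difference of 1.02 that did not pass (limma, adjusted p = 0.082). By array Ly6g read 6.18 and 5.45 in GM-CSF and 4.49 and 5.10 in M-CSF cells, so GM-CSF replicate 1 alone was above background. The neutrophil list averaged 6.71 and 7.29 in the GM-CSF arrays and 6.71 to 6.73 in the M-CSF arrays, the high array being GM-CSF replicate 1.

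All 5 eosinophil markers were higher in GM-CSF replicate 1 than in replicate 2, as were 44% of all genes tested. Epx and Il5ra among them had both group means under the background of 5.90, though Epx read 6.12 on GM-CSF replicate 1. Ear6 read 8.83 and 5.91 in GM-CSF against 4.84 and 5.38 in M-CSF cells. Of the fibroblast list Dcn was higher in GM-CSF cells (1.07). The 4 other tested genes did not pass and all had negative differences, from -0.10 for Col3a1 to -0.29 for Col1a1 and Pdgfra. Of these, 2 were lower at an unadjusted p under 0.05 (limma). The fibroblast list averaged 6.07 to 6.15 in the GM-CSF arrays and 6.04 to 6.05 in the M-CSF arrays. Of the B cell list Cd79b was lower in GM-CSF cells (-2.36), while Cd79a and Ms4a1 were no brighter than background. In the macrophage list Cd14 was higher (1.66) and the other 7 genes did not pass. T cell, mast cell and erythroid markers had no gene that passed (limma), with 1 T cell marker and no other at an unadjusted p under 0.05. The part of such cells in the annexin and S100 differences was not tested.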

How the data were processed

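Sorted macrophages of each growth factor were measured on 1-colour Affymetrix arrays, with random-primed labelling of 300 ng of total RNA per the labels' protocols. Values deposited by the authors are on the log2 scale, 1 per probe set, and the submitters' processing notes name RMA and Affymetrix Expression Console 1.1. RMA subtracts background, brings arrays to one distribution and summarises probes. Dim genes therefore show smaller differences than they had, and a shift in the RNA content of a cell is not visible. The genome build, scan batches and detection calls are not given in the sources used here, so batches were not tested.

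Of 35556 probe sets, 21789 had exactly 1 gene symbol in the platform annotation, 1621 had several and were not named, and 12146 had none listed. The 10 annexin and S100 genes had 11 such probe sets, and all 10 matched a RefSeq gene ID (GRCm38.p6). Each gene was represented by its brightest probe set by the mean over 4 arrays. A gene was tested if its value exceeded the 30th percentile of the array on 2 or more arrays. Probes may not part close paralogs.

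Differences are GM-CSF minus M-CSF, tested two-sided with lmFit and eBayes of limma 3.58.1 (R 4.3.3), on 2 residual and 4.17 prior degrees of freedom. P-values were adjusted by Benjamini-Hochberg over all genes tested, with a threshold of 0.05. Folds are powers of the log2 difference. The fit was tested on simulated data. Tables and plots were made with pandas 2.3.3 and matplotlib 3.10.9 in Python 3.11.15. The background reference was 1035 probe sets of olfactory receptor genes. Precision is limited by how few arrays there are.

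The members and the gene lists were chosen with earlier results of these data known. Besides the 10 genes, the text names the called and the largest members of each partner list, marker genes at least 1 apart (log2), and the 3 genes nearest to the member with the largest difference. Other genes were named after their values were seen. Other settings were no filter, a 50th percentile filter, quantile normalization, centring on array medians, probe set means, trended and robust variances, a replicate block and leaving out each array. For the partner genes these were added after seeing the data. Fits without an array used the same genes, and the spread of a group left with 1 array was taken from the other group.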

Additional observations from a re-analysis of the deposited data

How the results depend on the processing

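Over 110 combinations of an annexin or S100 gene with another setting, the direction never reversed, and 98 kept their side of the threshold. The call was lost in 9 and gained in 3, and 11 of these 12 came from leaving out an array. The other was Anxa6 with probe set means, which left 0 of the 10 genes lower (limma, 0 at an unadjusted p under 0.05). With arrays left out in turn, 1 to 7 of the 10 genes were higher and 0 to 1 lower (1 at an unadjusted p under 0.05 in each), beside 168 to 1683 higher and 65 to 1522 lower genes overall. Array medians as centres shifted all differences by -0.04 and gave 841 higher and 865 lower genes against 926 and 679. Replicate numbers appear in both groups, but the deviations of same-numbered arrays correlated at 0.06 with 2 pairs only. With the replicate block 966 genes were higher and 674 lower, and the 10 annexin and S100 genes still gave 5 higher and 1 lower. With 2 arrays a group, small differences such as those of Anxa2, Anxa5, Anxa7 and Anxa11 were not resolved.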
